A study of Mus musculus with 4 samples.

Results

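The genes described here are the SR proteins, the heterogeneous nuclear ribonucleoproteins (hnRNPs) and the core spliceosome subunits of sorted mouse regulatory T cells. They were chosen by symbol: every protein-coding gene of the deposited table called Srrm1 or Srrm2, or whose symbol begins with Srsf, Hnrnp, Snrp, Sf3a or Sf3b. That gave 54 of 52636 gene IDs, or of 21819 protein-coding ones: 13 SR protein genes with both Srrm genes, 20 hnRNP genes, 12 Snrp genes and 9 Sf3a and Sf3b genes. Another 5 genes with such symbols in the GENCODE M21 annotation are not typed as protein-coding there and were not members. The set was drawn up with results of these data in view, so the comparison of the groups below is a description.

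RNA was sequenced from CD4+CD62L+CD25bright regulatory T cells of C57BL/6 mice aged 7 weeks, with 2 libraries per group. The first group carries Vav1R63W, a knock-in allele of the T cell receptor signalling protein Vav1. The second carries the same allele and is labelled Vav1R63WThemis1-T-/-, a loss of Themis1 in T cells, so both groups share the Vav1 allele and no library has wild-type Vav1. The labels do not name the Cre line and leave unsaid whether replicates 2 and 3 are different animals, so the spread between libraries, and every p-value that rests on it, may be technical. Bulk RNA cannot tell fewer cells from less RNA per cell.

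Reads in genes numbered 13963670 to 15953194 per library. Levels are CPM, a gene's reads scaled to the reads in genes of its library. Themis, the targeted gene, was at 20.2 and 6.74 CPM in Vav1R63W replicates 2 and 3. It was at 42.9 CPM in the library with the Themis1-deleted label, replicate 2, and had 0 reads in replicate 3. The gene goes against the label of replicate 2, and which exons were deleted is not given in the labels. Each direction below is therefore between labels. Summed CPM of 8 regulatory T cell markers, Foxp3 and Il2ra among them, ran from 4168 to 5281. All 8 monocyte and macrophage markers were at 0 reads in every library. Summed NK markers were at 11.9 and 13.8 CPM in Vav1R63W and lower, at 6.14 and 0.143, in the other group (3 of 6 at 0, Ncr1 included). CD8 T cell markers summed to 19.4 to 66.8 CPM (Cd8a at 0) and erythroid markers from 0 to 8.65 CPM. The part of these markers in the values below was not tested.

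Introns are removed from pre-mRNA by the spliceosome, which is built on each intron from small nuclear ribonucleoproteins (snRNPs). Sm proteins, the products of most Snrp genes, form a ring around the small nuclear RNAs, and the SF3a and SF3b complexes of the U2 snRNP hold the branch point. SR proteins bind exonic sequences and generally favour use of nearby splice sites, whereas many hnRNPs bind pre-mRNA and often oppose it. T cells change the splicing of many transcripts on activation, and Hnrnpll is known for its part in choosing the exons of the phosphatase gene Ptprc (CD45).

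Promoters of 48 of the 54 genes were found in RefSeq (GRCm38.p6) as windows of 300 bases that reach from upstream of a start to just after it. Their median GC content was 60.8%, and 57.0% over 16522 protein-coding genes with a window. The ETS core CCGGAAG or its complement CTTCCGG stood in 33.3% of the member genes and 13.4% of all. The GC box GGGCGG (complement CCGCCC) was in 70.8% and 51.0%, the NRF1 core GCGCATGCG (CGCATGCGC) in 8.33% and 2.74%, and the YY1 core AAGATGGCG (CGCCATCTT) in 2.08% and 2.25%. The CCAAT box, which reads ATTGG on the other strand, was in 50% and 42.1%. TATAAA, with TTTATA as its complement, was in 14.6% and 14.3%. Overlapping matches were counted once per gene, on both strands. A match is a description, and the part of GC content in these shares was not tested. The 100 bases before a RefSeq start are shown for Srrm2, the member furthest below Vav1R63W with little spread, at chr17:23803087-23803186 on the plus strand, and for Snrpe, a Sm gene above it in both libraries, at chr1:133610281-133610380 on the minus strand. RefSeq and GENCODE M21 place these starts differently: the Srrm2 stretch lies inside the GENCODE gene, on none of its exon bases, and 11 of the Snrpe bases are annotated exon. RefSeq has another Srrm2 start nearby whose stretch is not shown. Capitals would mark the motifs searched, and neither stretch holds one.
Srrm2: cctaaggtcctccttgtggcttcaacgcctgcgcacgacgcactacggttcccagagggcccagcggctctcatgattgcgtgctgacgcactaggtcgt
Snrpe: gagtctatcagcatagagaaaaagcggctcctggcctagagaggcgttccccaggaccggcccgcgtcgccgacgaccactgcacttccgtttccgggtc
The 300-base window of Snrpe has its ETS match just after the start, where CTTCCGG begins at base 4 and CCGGAAG at base 7. No window of Srrm2 held any of these 6 motifs, which says only that those letters are not there.

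Splicing genes were abundant as a class. Together the 54 genes took 11213 and 10562 CPM in Vav1R63W replicates 2 and 3, and 11099 and 10172 CPM in the libraries with the Themis1-deleted label, replicates 2 and 3. Those sums overlapped between the groups. The hnRNP genes took the largest share, 4544 to 5434 CPM per library. SR protein genes summed to 2189 and 2255 CPM against 2102 and 2058, and Snrp genes to 1832 and 1721 against 1888 and 1970. Neither of these family sums overlapped between the groups, and the gaps were small beside the levels. Most of the SR gap came from Srrm2 (209 and 206 CPM against 76.4 and 66.3), and without that gene the SR sums overlap. Sf3a and Sf3b genes summed to 1758 and 1701 CPM against 1895 and 1601, which overlapped.

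Between genes, levels are compared as CPM per kilobase of annotated exon (RPKM), averaged over the 4 libraries. Reads that map to several places, 7.39% to 8.94% by library, were not counted for any gene. Genes with near-identical copies may therefore stand too low in this order, and which members lose reads this way was not tested. Snrpb, which encodes Sm protein B, led in the unstranded column with 256 RPKM (235.5 to 277.6 over the libraries). Next stood Hnrnpf, a G-tract binding hnRNP, at 217 (186.9 to 248.8), Snrpe (Sm protein E) at 214 (180 to 247) and Hnrnpk, a poly(C) binding hnRNP, at 212 RPKM (193 to 234). Snrpb was above Hnrnpf and above Hnrnpk in each of the 4 libraries, though its range overlapped those of Hnrnpf and Snrpe. The ranges of Hnrnpf, Snrpe and Hnrnpk overlapped each other, so those 3 cannot be ordered. Snrpg (Sm protein G) followed at 167 RPKM, Hnrnpc, a binder of uridine tracts, at 132, Hnrnpa2b1 at 115, Hnrnpab at 106.2, Sf3b6, which contacts the branch point, at 106.1, and Srsf3, the most abundant SR protein gene, at 100.3 RPKM. At the other end, Hnrnpul2 was at 0.833 RPKM, Hnrnpd at 1.78 and Srsf1, a founding SR protein, at 1.91. Srsf12 had 209 reads in the library with the Themis1-deleted label, replicate 2, and 0 in each of the other 3 libraries. Snrpn, a Sm B paralog known from neurons, had 0 reads in all 4. A count of 0 allows up to 3 reads, or 0.188 to 0.215 CPM by library, by counting error alone. Snrpn shares exon bases with Snurf on its own strand, and reads there would count for neither. The other 52 genes passed the filter on low counts.

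**Figure D1:**
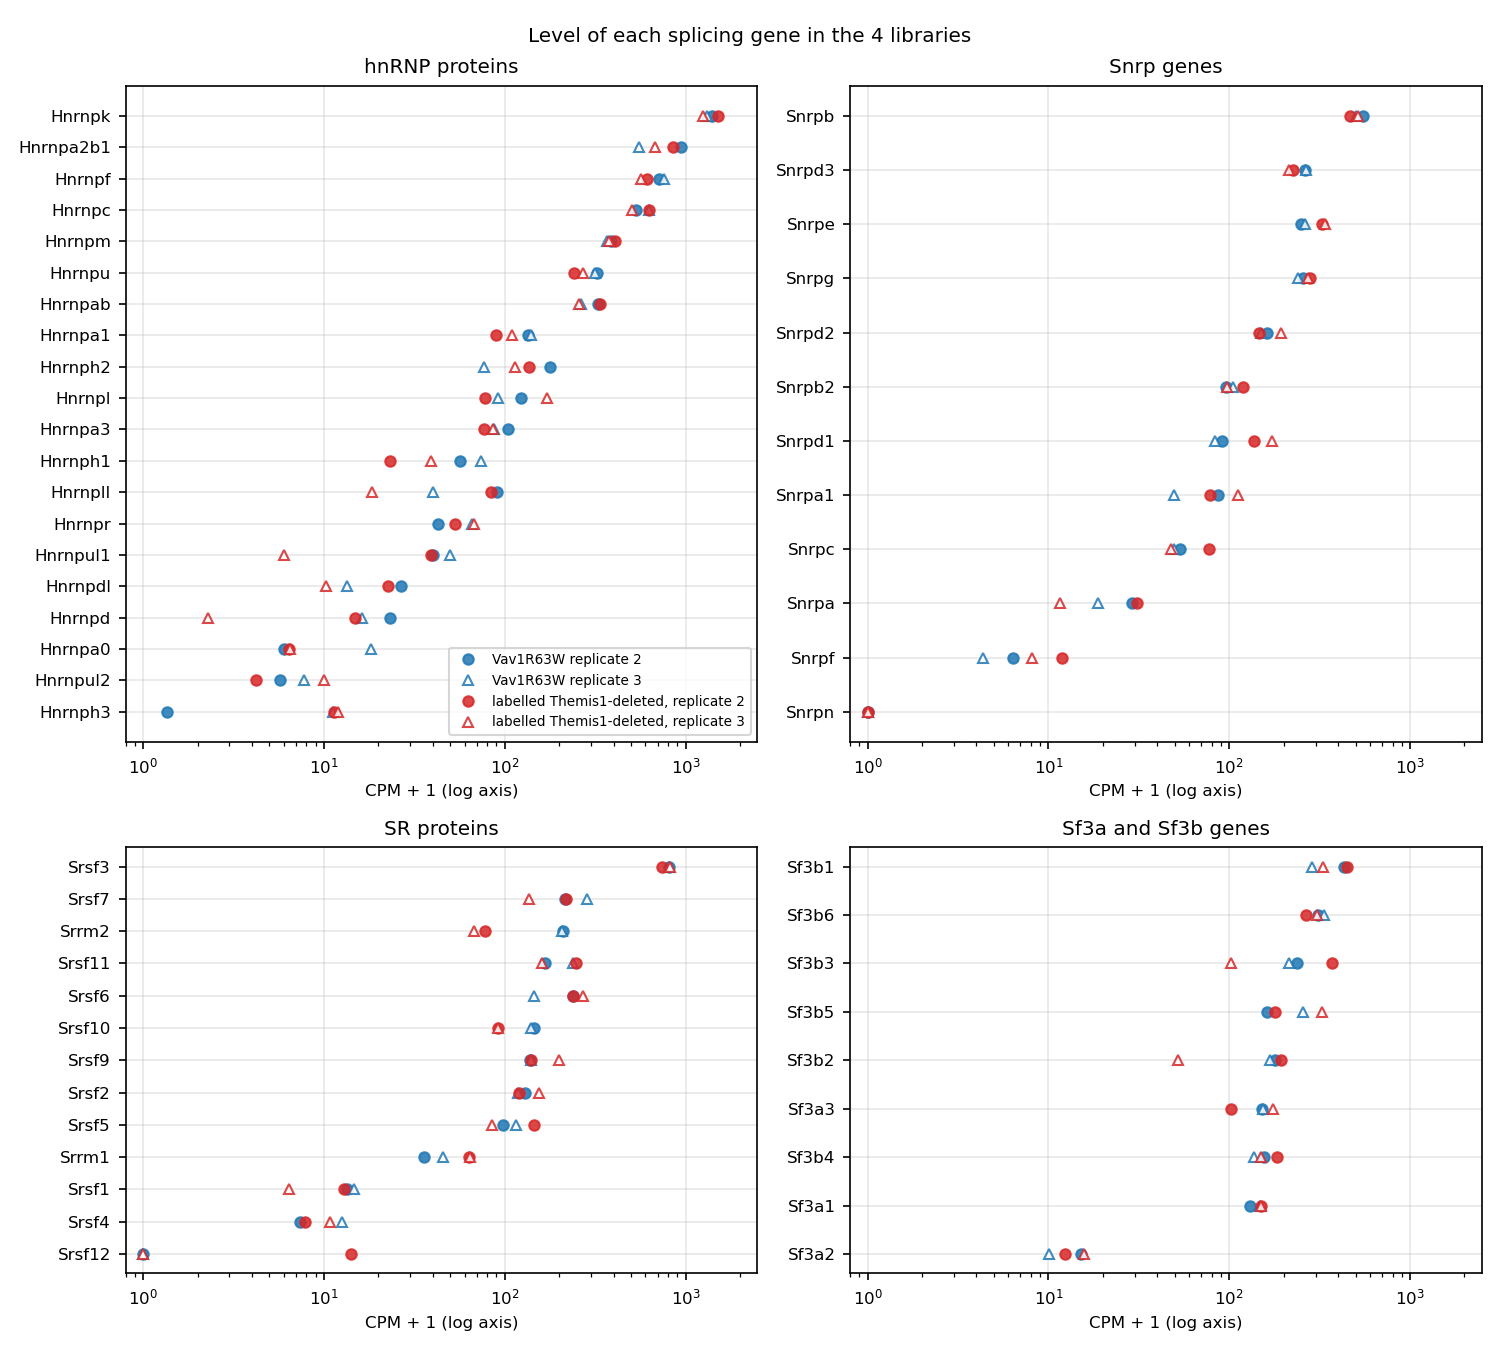
Level of each of the 54 genes in each library, as CPM + 1 on a log axis, by family; circles are replicate 2, open triangles replicate 3, blue Vav1R63W, red the libraries with the Themis1-deleted label. Most symbols of a gene lie close together, while Srrm2 separates by colour (207.8 ± 1.94 against 71.4 ± 7.14 CPM, SD, n = 2 each) and Hnrnpul1, Hnrnpd, Sf3b2 and Sf3b3 each have 1 low red triangle.

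The comparison asks whether the labelled loss of Themis1 goes with other levels of these genes. edgeR's quasi-likelihood test with Benjamini-Hochberg adjustment called none of the 10216 genes tested (0%), so 0 members. At an unadjusted p under 0.05 it had 509 genes (4.98%), among them 2 members, Srrm2 and Snrpd1. limma-voom also called 0 genes, and DESeq2 called 209 (2.09% of those with an adjusted p), Srrm2 alone among the members. The authors' deposited table has 123 genes under 0.05 (1.56% of those with an adjusted p), again with Srrm2 as the only member. Without replicate 2 of the group with the Themis1-deleted label, DESeq2 called 8 of 52 members (15.4%), Srrm2 among them, and 21.5% of all genes. That leaves 1 library in the group, so the spread came from Vav1R63W alone. These runs use the same reads and are not independent.

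Members had differences of both signs, 26 positive and 26 negative. The difference used from here on is of mean log2(CPM + 1), the libraries with the Themis1-deleted label minus Vav1R63W, with its SE from 2 libraries each. Its median over the 52 members was 0.0009 (interquartile range -0.31 to 0.16), and over all genes tested, which are lower in level, -0.05. Among genes at a mean of 100 CPM or more, it was 0.04 over 34 members and 0.0009 over 2005 genes. Without the library with the Themis1-deleted label, replicate 2, the members' median was -0.08 and that of all genes tested -0.09. For 7 members (13.5%) both libraries with the Themis1-deleted label lay above both Vav1R63W libraries, and for 12 (23.1%) both lay below. Over all genes tested these shares were 15.1% and 18.7%, so neither share of the members stood far from the background. At 100 CPM or more, they were 11.8% and 20.6% for the 34 members and 17.3% and 16.7% for the 2005 genes. By family the median was -0.02 for SR protein genes, -0.13 for hnRNP genes, 0.15 for Snrp genes and 0.11 for Sf3a and Sf3b genes.

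**Figure D2:**
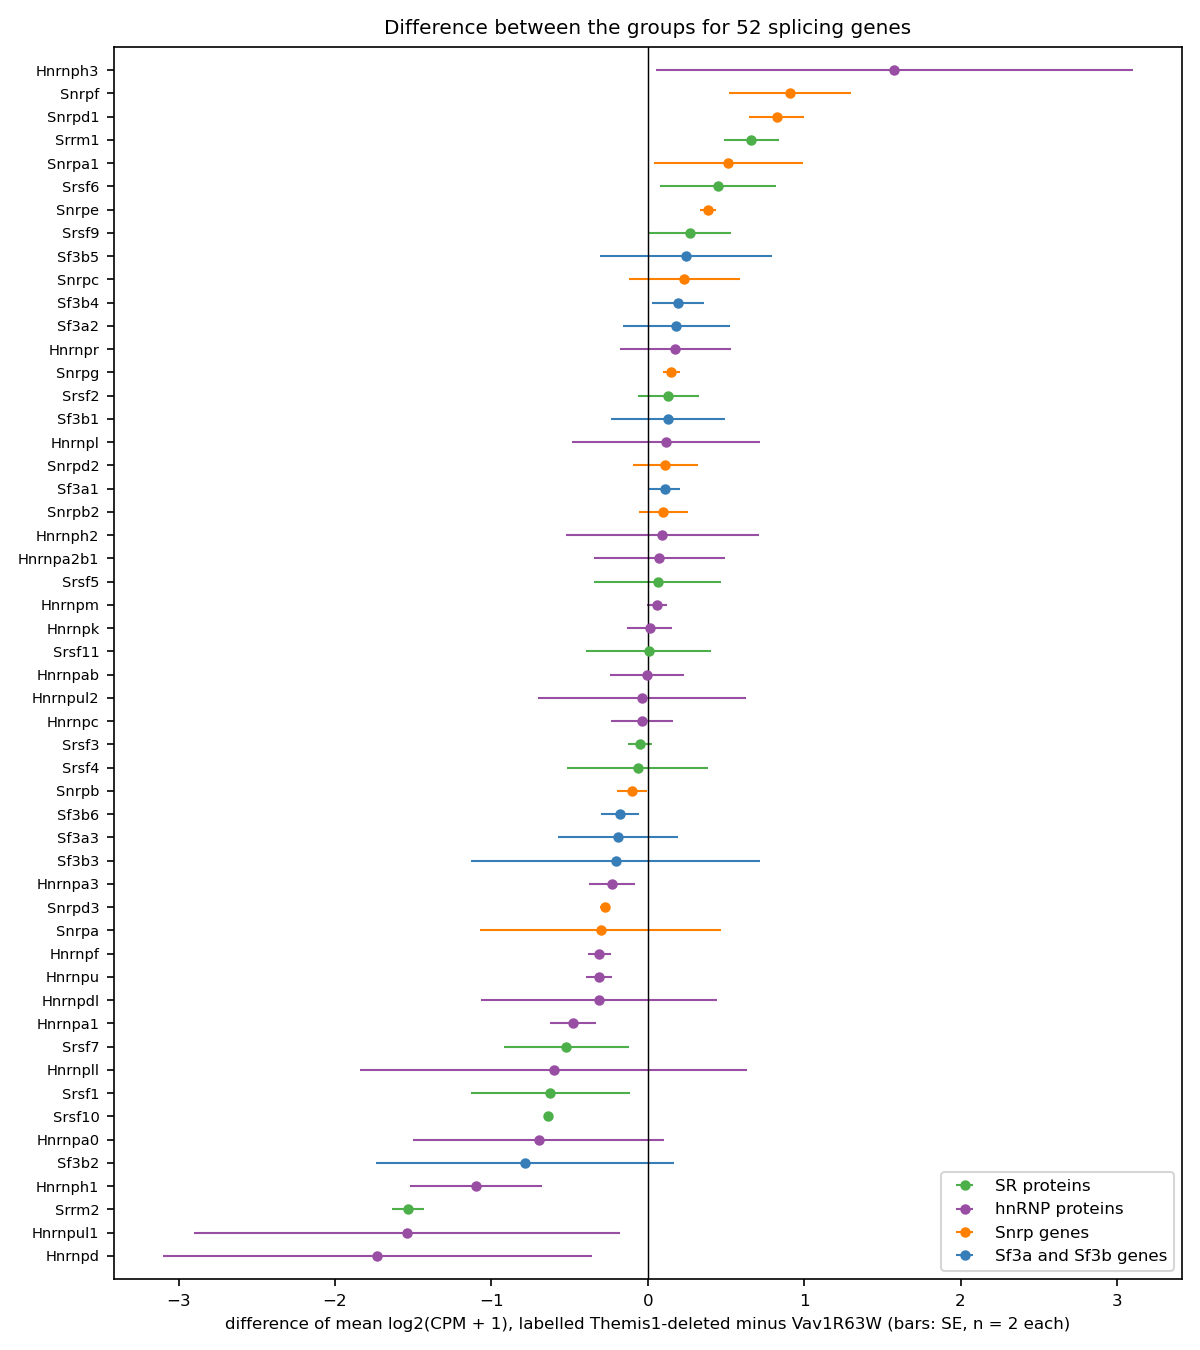
Difference of mean log2(CPM + 1) between the libraries with the Themis1-deleted label and Vav1R63W for the 52 genes that passed the filter, ordered by size and coloured by family; bars are the SE from 2 libraries per group. Srrm2 (-1.53 ± 0.10) and Srsf10 (-0.64 ± 0.03) are far from 0 with short bars, while Hnrnpd (-1.73 ± 1.37) and Hnrnph3 (1.58 ± 1.53) are far from 0 with long ones. A bar from 2 libraries per group is itself uncertain, and an SE derived from edgeR's F test was 0.238 for Srrm2 and 0.249 for Srsf10.

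Among the SR-related genes, the pair of serine/arginine repetitive matrix proteins differed in opposite directions. Srrm2 (ENSMUSG00000039218, GRCm38 chromosome 17, 23790532 to 23824741, plus strand) encodes a large scaffold of nuclear speckles, the bodies where splicing factors gather. It was at 209 and 206 CPM in Vav1R63W replicates 2 and 3 and at 76.4 and 66.3 CPM in the libraries with the Themis1-deleted label, replicates 2 and 3. The groups were well apart, with a mean 2.91-fold higher in Vav1R63W and replicates within each group close together. Srrm1 (chromosome 4), a splicing coactivator that works with SR proteins, was at 34.9 and 44.7 CPM against 62.8 and 63.5. Its groups did not overlap either, and its mean was 1.59-fold higher in the libraries with the Themis1-deleted label (difference 0.66 ± 0.17). Unlike Srrm2, it had an unadjusted p of 0.196 from edgeR. Groups that do not overlap were found for 33.8% of all genes tested.

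Of the SR proteins proper, Srsf10 had the tightest libraries. This splicing repressor that is activated by dephosphorylation was at 144 and 138 CPM in Vav1R63W and at 90.3 CPM in each of the other libraries, a difference of -0.64 ± 0.03. An SE from 2 libraries per group is itself uncertain. The SE derived from edgeR's F test was 0.249 for Srsf10, with an unadjusted p of 0.0625. Srsf1 was also below in both, at 12.4 and 13.8 CPM against 11.97 and 5.44, a gap that rested mostly on 1 library. The rest overlapped. Srsf3, which also acts in mRNA export, was at 804 and 807 CPM against 738 and 820. For Srsf7, a close relative of Srsf3, the values were 213 and 282 CPM against 217 and 134. Srsf9 was level in 3 libraries (136, 139 and 138 CPM) and at 199 CPM in the library with the Themis1-deleted label, replicate 3. Srsf6 was at 237, 237 and 270 CPM in 3 libraries and at 144 in Vav1R63W replicate 3. Srsf5 was at 97.2 and 114 CPM against 144 and 83.7, and Srsf11 at 166 and 237 against 247 and 160, so that in both genes Vav1R63W lay between the other libraries.

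Of the 20 hnRNP genes, 7 (35%) were below Vav1R63W in both libraries and 1 (5%) above, against 18.7% and 15.1% of all genes tested. With both strand columns summed, 6 were below. The 7 include Hnrnpul1 and Hnrnpd, whose gaps rested mostly on 1 library, as described below. The 1 above, Hnrnph3, had 5 reads in Vav1R63W replicate 2. Hnrnph1, which binds G tracts, was at 55.6 and 72.6 CPM in Vav1R63W and at 22.3 and 38.1 CPM in the libraries with the Themis1-deleted label (difference -1.10 ± 0.42). The groups stood apart, but replicates of each also differed. Its relative Hnrnpf was at 708 and 758 CPM against 613 and 569, a smaller gap (-0.31 ± 0.07). Hnrnpu, a nuclear scaffold and RNA-binding protein, was at 321 and 315 CPM against 241 and 272 (-0.31 ± 0.09). Overlapping exons held part of the reads of Hnrnpf and Hnrnpu, and with both strand columns summed the differences were -0.28 and -0.24. Hnrnpa1, a well-studied splicing repressor, was at 134 and 139 CPM against 88.1 and 108 (-0.48 ± 0.15). Hnrnpa1 has near-identical copies in the genome, and reads that map to several places were not counted, so its level is uncertain.

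Several other abundant hnRNP genes had overlapping groups. Hnrnpk was at 1403 and 1321 CPM against 1512 and 1249, and Hnrnpc at 530 and 627 against 627 and 504. Hnrnpm, a regulator of alternative exons, ran from 366 to 406 CPM over all 4 libraries. Hnrnpa2b1, known also for RNA transport, ran from 553 CPM in Vav1R63W replicate 3 to 943 in replicate 2, with the other libraries between. Its replicates of Vav1R63W were the furthest apart of these 4 genes.

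The Snrp genes were the family with most members above Vav1R63W in both libraries, 4 of 11 tested (36.4%), against 15.1% of all genes tested; all 4 encode Sm ring proteins. Snrpd1 (Sm protein D1, chromosome 18, 10617775 to 10642079, plus strand) was at 89.9 and 82.5 CPM in Vav1R63W and at 137 and 172 CPM in the libraries with the Themis1-deleted label. That is 1.79-fold higher (0.82 ± 0.17), with libraries of a group closer to each other than to the other group. Snrpe was at 247 and 262 CPM against 326 and 339, 1.31-fold higher (0.38 ± 0.05). Snrpg was at 256 and 239 CPM against 280 and 270 (0.15 ± 0.05), a narrow gap. The ring was not uniform. Snrpd3, at 262 and 265 CPM, was lower in the libraries with the Themis1-deleted label, at 223 and 213 (-0.27 ± 0.03). The SE derived from edgeR's F test was wider, at 0.163 for Snrpe and 0.168 for Snrpd3 (unadjusted p 0.0610 and 0.205). Snrpb (549 and 501 CPM against 465 and 512) and Snrpd2 (160 and 150 against 145 and 193) overlapped. The fourth of the genes above in both, Snrpf, is described with the strand columns below.

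The 4 Snrp genes for proteins particular to U1 or U2 overlapped between the groups. Snrpc of U1 was at 52.6 and 48.3 CPM against 76.2 and 46.5, and Snrpa of U1 at 27.9 and 17.8 against 29.8 and 10.6. Snrpa1 and Snrpb2, a pair that binds together in U2, were at 85.7 and 48.4 CPM against 77.5 and 111, and at 95.4 and 104 against 118 and 96.2.

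Of the 9 branch point complex genes, 1 (11.1%) was above in both libraries and 1 (11.1%) below. Over all genes tested the shares were 15.1% and 18.7%, from which so few genes cannot be told apart. Sf3a1 was at 128.8 and 147.9 CPM in Vav1R63W and 149.4 and 148.5 in the libraries with the Themis1-deleted label, a gap of less than 1 CPM between the nearest libraries. Sf3b6 was at 308 and 334 CPM against 263 and 306 (-0.18 ± 0.12). Sf3b1, the largest subunit of SF3b, was at 429 and 287 CPM against 449 and 329, higher in replicate 2 than in replicate 3 of each group. Sf3b4 was at 154 and 135 CPM against 182 and 150, and Sf3b5 at 160 and 255 against 177 and 326. Both overlapped.

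Spread between libraries of the same group was uneven over the family. Within Vav1R63W, 4 of 52 members (7.69%) differed at least 2-fold between replicates 2 and 3, and within the libraries with the Themis1-deleted label 10 (19.2%) did. Over all genes tested, which are lower in level, the shares were 33.5% and 41.7%. Among genes at a mean of 100 CPM or more, they were 2.94% and 8.82% for 34 members and 5.14% and 7.48% for 2005 genes. In 8 of the 10 the low library was the one with the Themis1-deleted label, replicate 3, and in the other two, Hnrnpl and Hnrnpul2, it was replicate 2. Over all genes tested, replicate 3 was the low one in 2674 of 4256.

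Those 8 genes came from every family, and Hnrnpul1, Sf3b3, Hnrnpll, Snrpa, Srsf1 and Hnrnpdl were picked after their values were seen. Hnrnpul1, an RNA-binding relative of Hnrnpu, was at 39.0 and 48.8 CPM in Vav1R63W and at 38.2 and 5.01 CPM in the libraries with the Themis1-deleted label, replicates 2 and 3. Hnrnpd, known as AUF1 and for mRNA decay, was at 22.1 and 15.1 CPM against 13.9 and 1.29. Both therefore have large differences that come from 1 library. Sf3b2 was at 177 and 167 CPM against 193 and 50.9, and its difference of -0.79 became 0.17 without replicate 3 of the group with the Themis1-deleted label. Sf3b3, a scaffold subunit of SF3b, was at 235 and 212 CPM against 368 and 102, a gap between replicates nearly as wide as that of Sf3b2. The T cell regulator Hnrnpll was at 89.1 and 39.0 CPM against 83.2 and 17.5, low in replicate 3 of both groups. Snrpa, Srsf1 and Hnrnpdl completed the 8. In Vav1R63W the extreme was Hnrnph3, with 5 reads in replicate 2 and 148 in replicate 3, against 166 and 153.

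**Figure D3:**
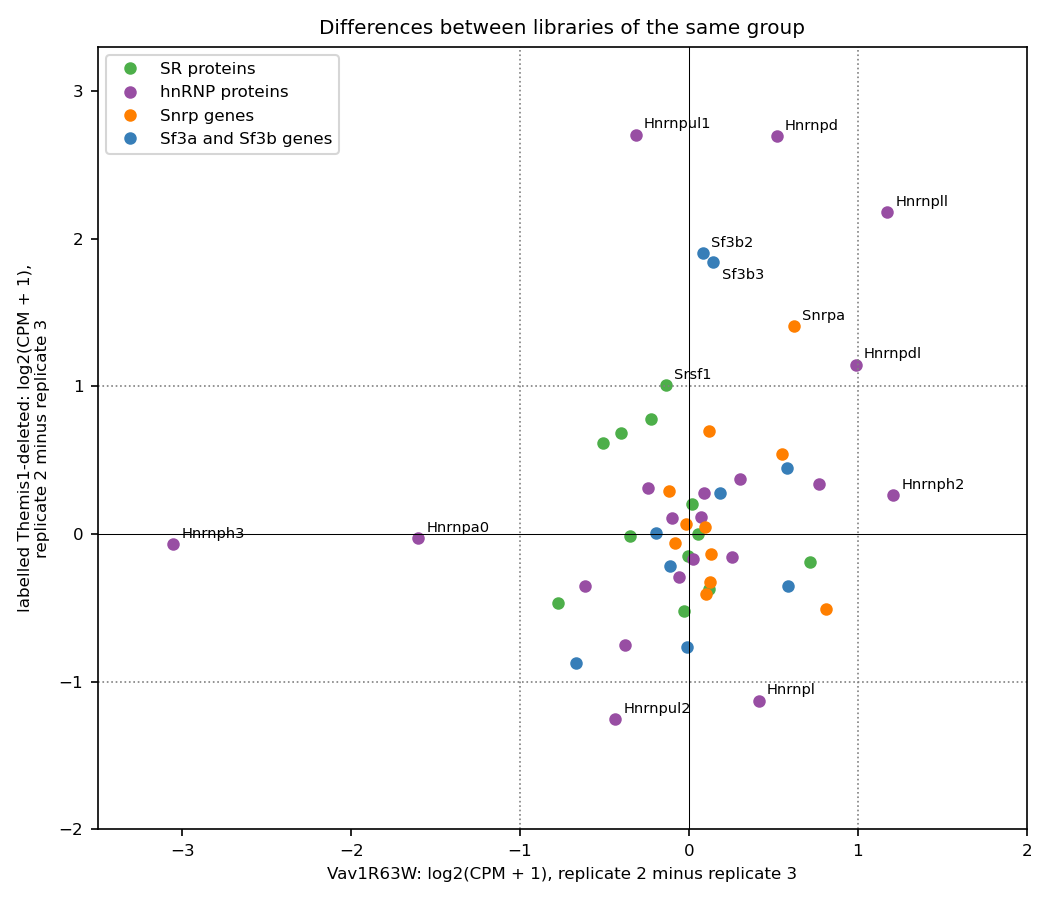
Difference between replicates 2 and 3 within Vav1R63W (x axis) and within the libraries with the Themis1-deleted label (y axis), in log2(CPM + 1), for 52 genes coloured by family; dotted lines mark 2-fold and genes beyond them are named. The 8 genes above the upper dotted line are those low in the library with the Themis1-deleted label, replicate 3, and Hnrnph3 lies far to the left because of Vav1R63W replicate 2.

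Several members share exon bases with other genes, which affects how their reads are counted. In the unstranded column used above, a read that lies on exons of 2 genes on opposite strands counts for neither. The files also hold a column for each strand, and because the library kit does not mark strand, their sum counts such a read once for each gene. Of the 53 members with reads, 40 had at least 95% of that sum in the unstranded column, 8 had under 80% and 5 under 50%. The 5 were picked after their values were seen.

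Snrpf (Sm protein F, ENSMUSG00000020018, GRCm38 chromosome 10, 93583029 to 93589706, minus strand) kept 3.74% of the summed reads. It had 75 and 48 reads in Vav1R63W and 174 and 100 in the libraries with the Themis1-deleted label in the unstranded column, but 2256 and 1988 against 3088 and 3274 in the strand columns summed. In GENCODE M21, 85.4% of its exon bases are shared, mostly with Ccdc38 on the other strand. Ccdc38 itself had 0 reads in the unstranded column in all 4 libraries, so no read fell on its exons alone. With the strand columns summed, Snrpf was at 147 and 125 CPM against 177 and 213 (difference 0.51), still above in both. Its level per length was 193 RPKM there and 7.77 in the unstranded column, rank 39 of the 54 genes. Summing the strand columns also put Hnrnpf (269.8 RPKM) above Snrpb (233.8) and Hnrnpab at 196.5.

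Srsf4 kept 17.4% of the summed reads, with 43.0% of its exon bases shared with the noncoding gene Gm12992. It was at 32.2 and 74.7 CPM against 30.2 and 44.8 with the strand columns summed, high in Vav1R63W replicate 3. The unstranded column held 33.2% of the summed reads for Sf3a2, a subunit of SF3a, 41.1% for Srsf2, an SR protein often studied for its exon binding, and 49.3% for Hnrnpab. Sf3a2 was at 45.6 and 28.0 CPM against 27.4 and 34.3 with the strand columns summed, so its difference was -0.21 there and 0.18 in the unstranded column. Srsf2 was at 289 and 256 CPM against 252 and 356, and Hnrnpab at 596 and 534 against 591 and 466. Plekhj1, which overlaps 16.1% of the exon bases of Sf3a2, had 1548 to 1705 reads of its own, so the summed value of Sf3a2 may hold reads of Plekhj1. Reads of Srsf2 and its neighbours Mettl23 and Mfsd11, which have reads of their own, cannot be told apart where they overlap. With the strand columns summed, 9 of 52 members had both libraries above and 11 both below. Of the 11464 genes tested that way, 1703 (14.9%) were above and 2163 (18.9%) below, so neither share of the members stood far from the background. The groups of Srsf6 and Srsf9 no longer overlapped there and those of Hnrnpd did, each with its nearest libraries of the 2 groups close together in both columns.

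**Figure D4:**
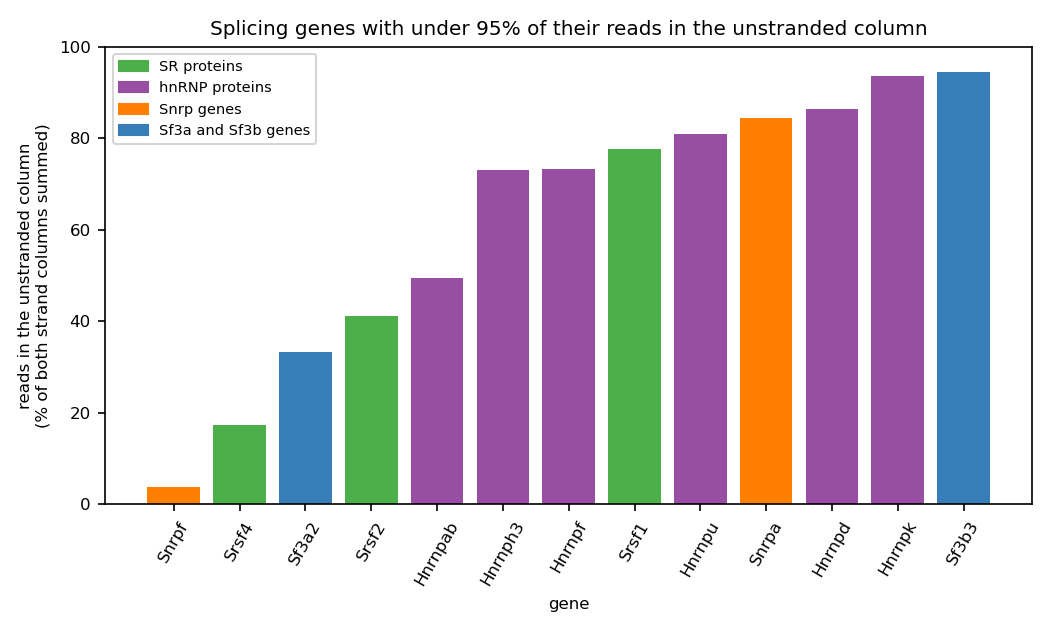
Reads in the unstranded column as a percentage of both strand columns summed, over the 4 libraries, for the 13 members under 95%, coloured by family. Snrpf, at 3.74%, and Srsf4, at 17.4%, have the lowest shares.

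The other genes of the pathway were taken from 7 lists of general knowledge with 174 distinct genes found, 170 of them tested. edgeR called 0 of them. At an unadjusted p under 0.05 it had 5 of the 170, a smaller share than the 509 of 10216 (4.98%) over all genes tested. Both libraries with the Themis1-deleted label lay above Vav1R63W for 18 of the 170 (10.6%) and below for 41 (24.1%), against 15.1% and 18.7% of all genes tested. The median difference was -0.15, against -0.05 over all genes tested (interquartile range -0.64 to 0.39). By list it was 0.003 for other snRNP proteins, 0.06 for 3' splice site recognition, -0.28 for the Prp19 complex and catalytic factors, and -0.30 for SR kinases and SR-related proteins. For other RNA-binding splicing regulators it was -0.04, for the SMN complex with Sm protein methylation -0.32, and for the exon junction complex -0.36.

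Of the snRNP list, Lsm6, a subunit of the ring of U6, was at 124 and 125 CPM in Vav1R63W and at 189 and 227 in the libraries with the Themis1-deleted label. Those groups were apart (0.73 ± 0.13), with an adjusted p of 0.383 from DESeq2 and of 0.0454 in the authors' deposited table. Prpf39, a U1-associated protein, was at 22.5 and 67.8 CPM against 4.14 and 4.87, with an adjusted p of 0.0414 from DESeq2 and of 0.0252 in the authors' deposited table. The unstranded column held 14.4% of the reads of both strand columns, although 5.01% of its exon bases are shared, so most of the summed reads lie where they may be the other gene's. Its difference was -2.87 in the unstranded column and -0.45 with the strand columns summed, where DESeq2 called 0 genes of these lists. From the list for 3' splice site recognition, Dhx15, a helicase that takes spliceosomes apart, was at 71.9 and 58.4 CPM against 106 and 141. Zrsr1 of the same list, a relative of U2af1, had no read in Vav1R63W and was at 5.70 and 1.07 CPM in the other libraries. It thus passed the filter on low counts only through the libraries with the Themis1-deleted label.

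In the catalytic list, Ctnnbl1 was at 88.4 and 144 CPM against 205 and 193, and Plrg1 of the Prp19 complex at 179 and 214 against 141 and 78.8. From the list of SR kinases and SR-related proteins, Rnps1, an activator, was at 119 and 158 CPM against 94.8 and 71.5. Son of that list, a speckle scaffold like Srrm2, was at 265 and 218 against 269 and 405. Son thus lay on the other side of Vav1R63W from Srrm2, but its nearest libraries of the 2 groups were close together. Its difference of 0.46 became 0.17 without replicate 3 of the group with the Themis1-deleted label. Among other RNA-binding splicing regulators, Rbm25 was at 97.9 and 97.1 CPM against 45.5 and 56.2. Ptbp3, a polypyrimidine tract binder there, was at 240 and 202 against 109 and 157. In the SMN and Sm methylation list, Wdr77, a partner of the Sm methylase Prmt5, was at 57.6 and 66.7 CPM against 33.2 and 44.3. Gemin8 of the SMN complex was at 9.93 and 19.2 against 0 and 2.72. In the exon junction complex list, Upf2, of nonsense-mediated decay, was at 58.0 CPM in Vav1R63W replicate 2 alone and at 2.88 to 10.2 in the others. Eif4a3, the helicase of that complex, ran from 295 to 475 CPM. None of these genes passed the edgeR test (adjusted p from 0.900 to 1.00 for the 14 named).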

How the data were processed

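RNA sequencing of 4 libraries was used, grouped by title. Per the submitters' processing notes, FastQC, Trim Galore, STAR and MultiQC handled the reads, with versions not given in the sources used here. Ensembl release 90 is named in the design text but mm9, another mouse build, in the notes. The authors deposited raw read counts per gene in 3 columns (unstranded and each strand) per library, in the layout STAR writes. Summary lines that name no gene held 21.1% to 23.1% of reads and were left out. The authors' deposited series table repeats the unstranded counts (equal for all 52636 genes in each library). It adds normalized counts rounded to whole numbers, treated here as a score, and a mean normalized signal, both deposited by the authors and not used. Per the file headers it also holds the authors' DESeq2 comparison, with p-values, a ratio (fold change) and its log2.

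Symbols, exon lengths and coordinates come from GENCODE M21 (GRCm38), matched by gene ID for 52403 IDs. edgeR 4.0.16 in R 4.3.3 was fitted to all genes (TMM, filterByExpr with a minimum count of 10 and total of 15, robust quasi-likelihood F test, two-sided, called at an adjusted p under 0.05), with DESeq2 1.42.0 and limma-voom 3.58.1 as alternatives. The other alternatives were DESeq2 size factors, no filter, 1 CPM in 2 libraries, a pseudocount of 0.25 CPM, summed strand columns, the replicate block and leaving out each library. The SE given for edgeR is not printed by its test and was derived as the size of its log2 fold change over the square root of F. The scripts were tested on simulated data. Floors cover counting error only. One list of cell type markers is not reported here.

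The members and lists were chosen with earlier results of these data known. Genes given in full were, per family, the 3 with the smallest p, the 3 with the highest RPKM and those with a library under 1 in 10 of the highest, with Srrm2 always included; of each pathway list, the 2 with the smallest p. Other members are named to account for the family.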

Additional observations from a re-analysis of the deposited data

How the results depend on the processing

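edgeR called 0 genes, 0 members and 0 genes of the pathway lists with DESeq2 size factors, no filter, a 1 CPM filter, summed strand columns, the replicate block and each library left out, as did limma-voom. DESeq2 called 209 genes, 1 member and 1 pathway gene, and on the summed strand columns, chosen after seeing the data, 200, 1 and 0. Leaving out each library in turn, also chosen after seeing the data, DESeq2 called 640 genes, 2 members and 4 pathway genes without Vav1R63W replicate 2, and 433, 1 and 3 without Vav1R63W replicate 3. It called 2194, 8 and 29 without replicate 2 of the group with the Themis1-deleted label, and 900, 4 and 13 without its replicate 3; the cause was not tested. Each such run has 1 library in a group, assumed to vary like the other group. Calls over all genes rose in these runs as well, and the counts are not shares of the genes tested. A rise particular to members or pathway genes therefore cannot be read from them. DESeq2 called Srrm2 in all 4 (adjusted p from 2.41e-09 to 6.16e-04) and edgeR in 0 of the same 4 (adjusted p from 0.437 to 1), while Sf3b3 was called by DESeq2 lower (log2 -1.09) in 1 and higher (log2 0.72) in another. The members' median log2 difference ran from -0.0813 without the library with the Themis1-deleted label, replicate 2, to 0.0610 without replicate 3, and was 0.03 with TMM totals and 0.03 with the replicate block. The labels give same-numbered libraries no shared source (correlation of same-numbered deviations 0.02 over 10216 genes and 0.23 over the 52 members, with 2 pairs), and the block moved no count of calls. Of 22 members chosen by the naming rule and followed through 8 alternatives, scaling, pseudocount and strand columns changed the sign of 0, and leaving out 1 library changed that of 1 to 3: Srsf3, Sf3b2, Sf3b5, Hnrnpc and Hnrnpk. With 2 libraries a group, genes of a few reads are limited by counting.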
